A study of Mus musculus with 42 samples.

Results

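Cck encodes the precursor of cholecystokinin and Cckbr encodes the cholecystokinin B receptor, the main form of the receptor in the brain. These 2 genes are described here across hand-picked neurons of the adult mouse forebrain. Members were taken as every probe set whose single annotated gene symbol was Cck or Cckbr, and the brightest probe set stood for each gene. That gave 2 genes of the 12393 with such a probe set, on 3 probe sets: 1419473_a_at for Cck, and 1454770_at (the brighter) and 1460663_at for Cckbr. Both genes passed the filter on low values that left 9295 genes for testing.

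The data are 42 single-colour Affymetrix arrays, 3 for each of 14 groups, with RNA from dissociated tissue of male mice for the sorted cells. Every YFPH_Hip and YFPH_Amy array came from mice 91 days old or older, against 57 to 86 days for the 29 other sorted arrays with an age in the label (1 YFPH_Cg array has none). In the YFPH_Hip and YFPH_Amy differences below, age therefore cannot be told apart from region or line. In 12 groups fluorescent cells were picked under a microscope, 27 to 120 cells per array, and the RNA was amplified, so a pool with fewer cells of a type and a pool with less RNA per cell cannot be told apart. Per the series text no animal served 2 arrays of the same group, and 5 arrays carried the ages of several pooled mice. Between groups some ages were the same. This held for YFPH_Hip and YFPH_Amy, for G30_Cg arrays 2 and 3 and G30_SS arrays 1 and 2, and for array 1 of YFPH_Cg and YFPH_SS. Whether these arrays shared mice was not tested, and the main fit took all arrays as independent. The groups with pyramidal neurons by label were YFPH_Cg and YFPH_SS (layer 5, cingulate and somatosensory cortex), YFPH_Hip (hippocampus) and CT6_Cg (layer 6 of cingulate cortex, filled with beads injected into the medial dorsal thalamus of C57BL/6j mice). YFPH is a line in which the Thy1 promoter drives YFP in a part of the projection neurons, here mixed with C57BL/6j. The groups with interneurons by label were G30_Cg and G30_SS (G30 line, cingulate and somatosensory cortex), G42_Cg (parvalbumin cells of cingulate cortex), G42_LGN (lateral geniculate nucleus), and GIN_Cg and GIN_Hip (somatostatin cells of cingulate cortex and hippocampus). GIN is labelled as a Gad1 line, and the labels used here name no promoter for G42 and G30. All 3 lines carry GFP and were mixed with C57BL/6j, except for G30_Cg array 1, whose label names the G30 line alone. YFPH_Amy and G30_Amy were fluorescent neurons of the amygdala of the YFPH and G30 lines, with no class in the label. GIN_Homog_Cg and G42_Homog_Cg were dissociated cells of cingulate cortex from GIN and G42 mice that were not sorted, with no sex or age in the label.

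Cholecystokinin is one of the most abundant neuropeptides of the cerebral cortex. Its precursor is cut by prohormone convertases, sulphated and amidated in the secretory pathway, stored in dense-core vesicles and released by calcium-triggered fusion. In the cortex most of the brain's cholecystokinin acts as the sulphated octapeptide on Cckbr, a receptor that couples through Gq proteins to phospholipase C, inositol trisphosphate and protein kinase C. In cortex and hippocampus the peptide is best known from a class of basket cells that carry the cannabinoid receptor Cnr1, and pyramidal cells also transcribe the gene.

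The labels of the sorted groups were checked against marker genes. Summed intensity of 3 GABAergic markers (Gad1, Gad2 and Slc32a1) ran from 371 to 758 over the arrays of the 4 pyramidal groups, against 11862 to 15274 over those of the 6 interneuron groups. Summed over 8 pyramidal markers, the pyramidal arrays reached 14605 to 26160, against 1803 to 5940 for the interneuron arrays, with the highest interneuron values in G30_SS (3113 to 5940). G30_Amy arrays had pyramidal marker sums of 17365 to 18905 and GABAergic sums of 513.5 to 2131, and in Gad1, the enzyme that makes GABA, they ran from 66.4 to 594. So the pyramidal sums of G30_Amy lay within the range of the pyramidal groups and its GABAergic sums below every interneuron array, although the same line gave interneurons in cortex. YFPH_SS held Pvalb, the calcium buffer of fast-spiking interneurons, at 2023 to 5627, against 391 to 473 in YFPH_Cg, and Sst in G30_SS ran from 1171 to 8922. GIN_Hip also held Pvalb, at 2948 to 4302, against 479 to 783 in GIN_Cg. In G30_Cg Sst ran from 1552 to 3139, against 970 to 1414 in the unsorted GIN_Homog_Cg. Array records mark YFPH_Hip array 1 and YFPH_Amy array 2 as abnormally amplified and YFPH_Cg array 3 as sorted by a new method.

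The stretches just before the annotated starts of both genes are shown because they are the proximal promoters of the transcripts measured below. Both come from the RefSeq promoter table on GRCm38.p6, in which 2 of 2 members were found, are written 5′ to 3′ on the gene's own strand, and stop where the annotated gene begins. Capitals mark matches to the E-box CACGTG and to TGACG, the core of a cyclic AMP response element, each searched on both strands. The Cck window is chr9:121495695-121495944 on the minus strand (250 bases), upstream of a gene at chr9:121489824-121495694. The Cckbr window is chr7:105425481-105425675 on the plus strand (195 bases), upstream of a gene at chr7:105425676-105436339.
Cck: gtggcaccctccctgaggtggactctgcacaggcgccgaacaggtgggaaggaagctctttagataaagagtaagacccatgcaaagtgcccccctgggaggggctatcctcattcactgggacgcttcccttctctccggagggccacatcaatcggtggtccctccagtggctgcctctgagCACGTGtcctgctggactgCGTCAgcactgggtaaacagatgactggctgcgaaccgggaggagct
Cckbr: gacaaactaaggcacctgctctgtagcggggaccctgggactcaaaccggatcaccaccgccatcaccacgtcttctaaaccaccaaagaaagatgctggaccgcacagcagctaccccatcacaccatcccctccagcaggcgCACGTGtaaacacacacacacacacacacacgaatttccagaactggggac
Both windows hold 1 E-box CACGTG, which 6.02% of all 32851 promoter windows of 250 bases in the table hold. Cck also has 1 match to TGACG on the opposite strand, a motif found in 17.8% of windows, while the 250 bases before the table's start of Cckbr have none. Neither gene's 250 bases held TATAAA (12.4% of windows) or the GC box GGGCGG (32.7%). The matches describe these letters only and overlap no other searched motif.

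Cck differed more across the sorted groups, relative to its spread between arrays, than any other gene tested. In limma's moderated F test over the 12 sorted groups it had the highest F of 9295 genes (377, adjusted p = 2.99e-28, where 79.8% of genes were called at 0.05), and Cckbr ranked 78 (F = 90.2, adjusted p = 8.58e-20). Of the 66 pairs of sorted groups, 53 differed in Cck and 52 in Cckbr at an adjusted p below 0.05 in limma, against a median of 14 pairs over the genes tested.

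**Figure D1:**
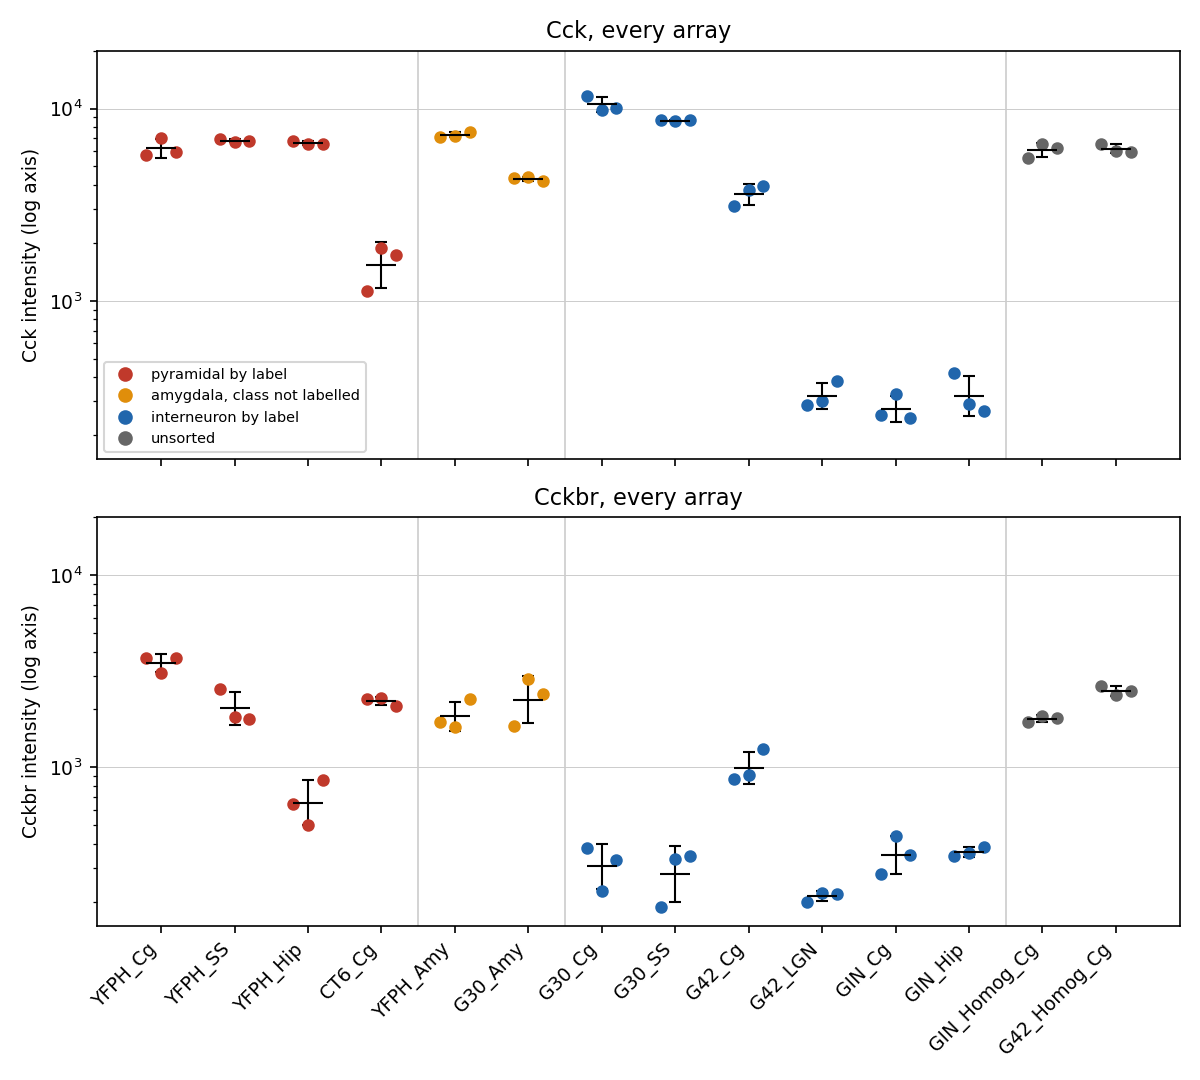
Deposited intensity (log axis) of Cck and Cckbr in each of the 42 arrays by group, with the group mean of log2(intensity + 16) as a bar and its SD (n = 3) as the error. Cck is highest in the G30 cortical groups and lowest in GIN_Cg, GIN_Hip and G42_LGN, while Cckbr is highest in YFPH_Cg and lowest in G42_LGN.

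The highest Cck levels were in the cortical interneurons of the G30 line. Intensity was 11663, 9892 and 10066 in G30_Cg and 8684, 8592 and 8741 in G30_SS. All 6 arrays lay above every other array of the series, and no array of G30_SS reached the lowest of G30_Cg, a separation that 10.9% of genes tested showed between these groups. The parvalbumin cells of G42_Cg had 3114, 3753 and 3941. The somatostatin cells had 255, 328 and 247 in GIN_Cg and 419, 292 and 266 in GIN_Hip, and the geniculate cells of G42_LGN had 286, 302 and 383. These 3 groups overlapped each other and lay below every array of the other 11 groups. They also lay near the filter on low values (intensity 203) and the array medians (285.83 to 330.39). The sizes of Cck folds against them are therefore uncertain. The interneurons by label thus held both ends of the range of Cck.

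Pyramidal neurons of layer 5 and hippocampus lay in a narrow band. Cck intensity was 5722, 7028 and 5951 in YFPH_Cg, 6945, 6704 and 6743 in YFPH_SS, and 6815, 6540 and 6541 in YFPH_Hip, and these groups overlapped. Layer 6 neurons of CT6_Cg had 1118, 1881 and 1728, below every array of the other pyramidal groups. In the amygdala, Cck intensity was 7113, 7238 and 7536 in YFPH_Amy and 4335, 4388 and 4193 in G30_Amy, with no overlap between the groups (arrays of 38.5% of genes did not overlap there). Unsorted cells of cingulate cortex had 5534, 6527 and 6227 in GIN_Homog_Cg and 6569, 6004 and 5971 in G42_Homog_Cg, within the band of the layer 5 neurons or just beside it.

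In the order of group means, Cck went down through G30_Cg, G30_SS, YFPH_Amy, YFPH_SS, YFPH_Hip, YFPH_Cg, G42_Homog_Cg, GIN_Homog_Cg, G30_Amy, G42_Cg, CT6_Cg, G42_LGN, GIN_Hip and GIN_Cg. Of the 13 steps between neighbours, 3 passed limma's test across all genes. GIN_Homog_Cg was above G30_Amy by 0.50 on the log2 scale (adjusted p = 0.0097, with 25.3% of genes called), G42_Cg above CT6_Cg by 1.21 (adjusted p = 2.74e-08, with 24.3% called) and CT6_Cg above G42_LGN by 2.20 (adjusted p = 1.48e-14, with 26.3% called). The other 10 neighbours did not differ beyond their spread by this test, although the 3 arrays of each group were separate in 4 of those 10. Separate arrays were found in 10.9% of genes between G30_Cg and G30_SS, 49.2% between G30_SS and YFPH_Amy, 29.6% between YFPH_Amy and YFPH_SS and 44.7% between G30_Amy and G42_Cg, the 4 pairs in question. Neighbours were picked by their means, so these tests only describe the order.

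Among interneurons of cingulate cortex, Cck was 36.2-fold higher in G30_Cg than in GIN_Cg. The log2 difference was 5.18 ± 0.14 (SE, n = 3 arrays each; limma adjusted p = 1.16e-24), in a comparison in which 24.7% of genes were called. G42_Cg was above GIN_Cg by 3.63 ± 0.14, or 12.4-fold (limma adjusted p = 4.47e-20, with 29.4% of genes called). G30_Cg was in turn above G42_Cg by 1.55 ± 0.14, or 2.92-fold (limma adjusted p = 2.22e-10, with 16.4% of genes called). The arrays of these 3 groups did not overlap in Cck, as was so for 38.5% of genes between G30_Cg and GIN_Cg, 41.2% between G42_Cg and GIN_Cg and 33.8% between G30_Cg and G42_Cg. Pyramidal marker sums were 2144 to 2175 in G30_Cg, 1803 to 2283 in G42_Cg and 2339 to 3563 in GIN_Cg. Their part in the Cck differences was not tested. The log2 ratio of 3′ to 5′ Gapdh signal, a sign of RNA quality, also moved with these groups, at 1.98 ± 0.20 in G42_Cg and 2.61 ± 0.26 in G30_Cg, against 3.21 ± 0.37 in GIN_Cg (SD, n = 3 each). With that ratio as a covariate, G42_Cg minus GIN_Cg was 3.84 in Cck (limma adjusted p = 2.35e-16) and 1.49 in Cckbr (adjusted p = 0.000353).

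Cck also differed between regions within the G42 line and not measurably within the GIN line. It was lower in G42_LGN than in G42_Cg by 10.7-fold, a log2 difference of -3.42 ± 0.14 (limma adjusted p = 1.38e-19, with 26.3% of genes called), with no overlap of arrays, as in 43.2% of genes. Pvalb moved with that difference, at 10698 to 11327 in G42_Cg and 488 to 783 in G42_LGN, so cell type and region cannot be told apart in it. GIN_Hip minus GIN_Cg was 0.21 ± 0.14 (95% interval -0.09 to 0.50; limma adjusted p = 0.341, where 18.4% of genes were called). G30_SS minus G30_Cg was -0.28 ± 0.14 (95% interval -0.57 to 0.02; limma adjusted p = 0.924, where 0.183% of genes were called), and within the scan day that held 2 arrays of each it was -0.21. Of 6 tested pyramidal markers 2 were higher in G30_SS than in G30_Cg and 4 were not called, where 0.161% of genes were higher. The part of these markers in the Cck difference was not tested.

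In the pooled comparison of classes, the mean of the 4 pyramidal groups was above that of the 6 interneuron groups by 1.62 ± 0.07 for Cck (12 against 18 arrays; limma adjusted p = 5.74e-21), in a comparison in which 49.1% of genes were called. The arrays of the classes overlapped, and only 1.16% of genes separated them. Cck ran from 1118 to 7028 in pyramidal arrays and from 247 to 11663 in interneuron arrays. With each cell type counted as 1 replicate, the difference was 1.62 ± 1.16 and was not called (limma adjusted p = 0.421). On the 2 scan days that held both classes the difference was -0.97 and -0.38, in each case 1 pyramidal array against 1 array of the G30 line.

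Against each interneuron line of cingulate cortex on its own, YFPH_Cg had more Cck than GIN_Cg and G42_Cg and less than G30_Cg. YFPH_Cg was above GIN_Cg by 21.4-fold (log2 4.42 ± 0.14; limma adjusted p = 2.17e-22, with 33% of genes called) and above G42_Cg by 1.73-fold (0.79 ± 0.14; limma adjusted p = 7e-05, with 23.5% called). YFPH_Cg was below G30_Cg by 1.69-fold (-0.76 ± 0.14; limma adjusted p = 0.00014, with 25.9% called), and by -0.97 on the scan day with 1 array of each. None of these 3 pairs overlapped in Cck, as was so for 42.4% of genes against GIN_Cg, 39.3% against G42_Cg and 41.8% against G30_Cg. In hippocampus YFPH_Hip was above GIN_Hip by 19.8-fold (4.31 ± 0.14; limma adjusted p = 2.54e-22, with 32% called). In somatosensory cortex YFPH_SS minus G30_SS was -0.35 ± 0.14 (limma adjusted p = 0.0728, with 24.7% called), and -0.38 on the scan day with 1 array of each. That difference was past the threshold when only the arrays of those groups were fitted (adjusted p = 0.00647) and after quantile normalization (-0.41, adjusted p = 0.0415). The other pyramidal group of cingulate cortex, CT6_Cg, went the other way against G42_Cg. G42_Cg was above CT6_Cg by 1.21 on the log2 scale (limma adjusted p = 2.74e-08, with 24.3% called).

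Within pyramidal cells of cingulate cortex, layer 6 had less Cck than layer 5. CT6_Cg was below YFPH_Cg by 4.01-fold, a log2 difference of -2.00 ± 0.14 (limma adjusted p = 1.15e-12, with 12.6% of genes called), with no overlap, as in 30.4% of genes. Across the regions of the YFPH line no difference in Cck was called: relative to YFPH_Cg it was 0.13 in YFPH_SS (95% interval -0.16 to 0.42; limma adjusted p = 0.975; 1.58% of genes called; 0.28 on the scan day with 1 array of each), 0.09 in YFPH_Hip (-0.20 to 0.39; adjusted p = 0.772; 10.1% called) and 0.23 in YFPH_Amy (-0.06 to 0.53; adjusted p = 0.491; 6.83% called). The G30 line did differ, with G30_Amy below G30_Cg by 2.44-fold (-1.28 ± 0.14; limma adjusted p = 1.28e-08, with 25.1% called). Cell-type markers moved with that difference: of those tested, 3 of 3 GABAergic markers were lower in G30_Amy than in G30_Cg (median -3.61) and 6 of 6 pyramidal markers higher (median 3.34), so cell class and region cannot be told apart in it. YFPH_Amy was above G30_Amy by 1.69-fold (0.76 ± 0.14; limma adjusted p = 0.00032, with 17.4% called), but with scan year as a block the difference was 0.69 and was not called (adjusted p = 0.297).

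Sorted interneurons were set against unsorted cells of the same line and area. Cck was lower in GIN_Cg than in GIN_Homog_Cg by 21.0-fold (-4.39 ± 0.14; limma adjusted p = 1.35e-22, with 29.4% of genes called), and on the 3 scan days that held 1 array of each it was -4.59, -4.18 and -4.40. G42_Cg was lower than G42_Homog_Cg by 1.72-fold (-0.78 ± 0.14; limma adjusted p = 5.25e-05, with 32.4% called), and by -1.07 and -0.68 on the 2 shared scan days. Neither pair overlapped, as was so for 43.5% of genes in the GIN pair and 48.4% in the G42 pair. Markers of several cell types moved with both pairs. Pyramidal marker sums were 2339 to 3563 in GIN_Cg and 1803 to 2283 in G42_Cg, against 15582 to 19608 in the unsorted cells, and 6 of 6 tested pyramidal markers were lower in each pair (medians -2.22 for GIN and -3.44 for G42). The tested oligodendrocyte markers (2 of 2, medians -3.19 and -3.83) and microglia markers (6 of 6) were also lower in both pairs, and the GABAergic markers (3 of 3) higher. Summed astrocyte markers were 1411 to 1489 in GIN_Cg and 4747 to 5621 in G42_Cg, against 17694 to 25742 in the unsorted cells. The part of these cell types in the Cck difference was not tested. GIN_Homog_Cg minus G42_Homog_Cg was -0.02 ± 0.14 (95% interval -0.32 to 0.27; limma adjusted p = 1, where 0.0108% of genes were called).

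**Figure D2:**
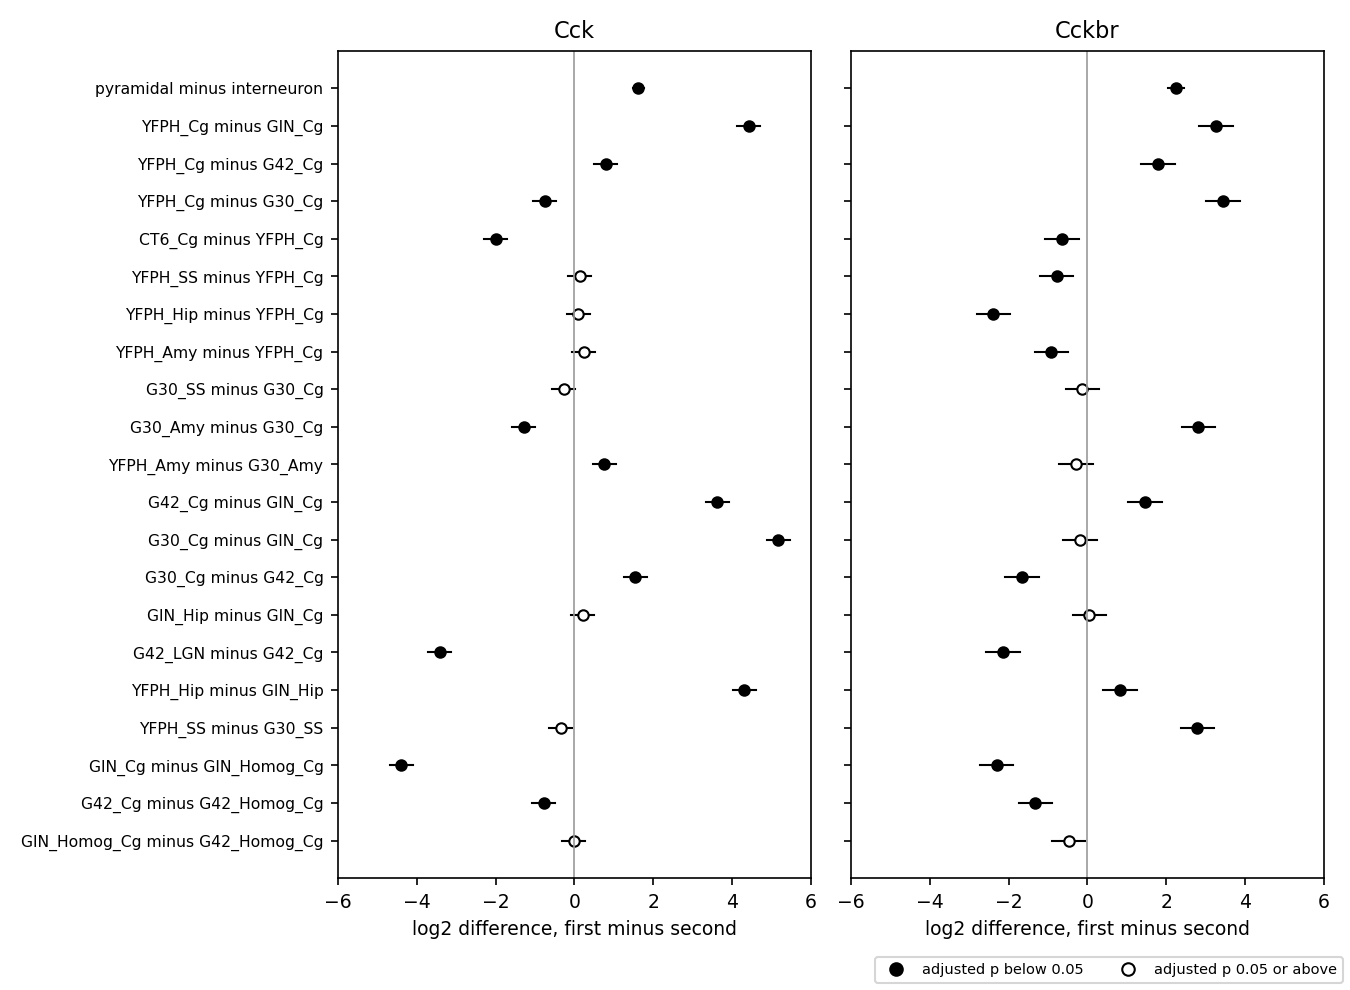
Differences of group means on the log2(intensity + 16) scale for Cck and Cckbr, first group minus second, with 95% intervals from the fit, and filled points where limma's adjusted p was below 0.05. Both genes were higher in YFPH_Cg than in GIN_Cg and G42_Cg, while against G30_Cg the Cck difference was -0.76 and the Cckbr difference 3.44.

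Cckbr, read from its brighter probe set, was highest in layer 5 of cingulate cortex. Intensity was 3689, 3087 and 3711 in YFPH_Cg, above every other array of the series. CT6_Cg had 2268, 2283 and 2090, and YFPH_SS had 2545, 1824 and 1785. Hippocampal pyramidal cells of YFPH_Hip had 646, 502 and 862, below every array of the other 3 pyramidal groups. The amygdala groups overlapped, with 1711, 1627 and 2252 in YFPH_Amy and 1646, 2880 and 2396 in G30_Amy.

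In interneurons the receptor was low except in the parvalbumin cells. G42_Cg had 867, 912 and 1238, above all other interneuron arrays. The G30 groups, which led in the peptide, had 382, 226 and 329 in G30_Cg and 188, 333 and 344 in G30_SS. GIN_Cg had 278, 436 and 350, GIN_Hip had 345, 359 and 385, and G42_LGN had 199, 222 and 218. These 5 groups lay near the filter on low values (intensity 203), so their order is uncertain. Unsorted cells had 1714, 1854 and 1801 in GIN_Homog_Cg and 2657, 2366 and 2478 in G42_Homog_Cg, without overlap.

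By group mean, Cckbr went down through YFPH_Cg, G42_Homog_Cg, G30_Amy, CT6_Cg, YFPH_SS, YFPH_Amy, GIN_Homog_Cg, G42_Cg, YFPH_Hip, GIN_Hip, GIN_Cg, G30_Cg, G30_SS and G42_LGN. Again 3 of the 13 steps passed limma's test: GIN_Homog_Cg above G42_Cg by 0.84 (adjusted p = 0.00186, with 36.6% of genes called), G42_Cg above YFPH_Hip by 0.59 (adjusted p = 0.0279, with 34.6% called) and YFPH_Hip above GIN_Hip by 0.82 (adjusted p = 0.00244, with 32% called). The other 10 neighbours did not differ beyond their spread by this test, and only the first of those steps, YFPH_Cg above G42_Homog_Cg, had separate arrays, as in 43% of genes.

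On the brighter probe set, the receptor was higher in pyramidal neurons than in interneurons in every pair of an area that was compared. Over the classes the difference was 2.25 ± 0.10, or 4.75-fold (limma adjusted p = 2.28e-20, in the comparison with 49.1% of genes called), although the arrays overlapped because YFPH_Hip lay below G42_Cg. That p, like those of the class differences of other genes below, takes arrays and not cell types as replicates. Log2 group means ran from 9.39 to 11.77 over the pyramidal groups and from 7.84 to 9.98 over the interneuron groups. Within the 2 scan days shared by a pyramidal and a G30 array the class difference was 3.23 and 2.35. YFPH_Cg was above GIN_Cg by 9.58-fold (3.26 ± 0.21; limma adjusted p = 1.44e-14), above G42_Cg by 3.47-fold (1.79 ± 0.21; adjusted p = 2.17e-08) and above G30_Cg by 10.9-fold (3.44 ± 0.21; adjusted p = 3.62e-15; 3.23 on the shared scan day). YFPH_SS was above G30_SS by 6.92-fold (2.79 ± 0.21; limma adjusted p = 1.11e-12; 2.35 on the shared scan day). YFPH_Hip was above GIN_Hip by 1.77-fold (0.82 ± 0.21; limma adjusted p = 0.00244). With scan year as a block it was 0.78 and no longer called (adjusted p = 0.0643). The shares of genes called in these comparisons of single groups are those given above with Cck.

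Among the interneurons of cingulate cortex, Cckbr was 2.76-fold higher in G42_Cg than in GIN_Cg (1.47 ± 0.21; limma adjusted p = 1.76e-06). It was 3.14-fold lower in G30_Cg than in G42_Cg (-1.65 ± 0.21; limma adjusted p = 2.09e-07). Neither pair overlapped. G30_Cg minus GIN_Cg was -0.18 ± 0.21 (95% interval -0.61 to 0.24; limma adjusted p = 0.56). Within the G42 line, G42_LGN was below G42_Cg by 4.41-fold (-2.14 ± 0.21; limma adjusted p = 5.37e-10). Given the Pvalb levels of these groups above, cell type and region cannot be told apart here either. GIN_Hip minus GIN_Cg was 0.05 (95% interval -0.37 to 0.48; limma adjusted p = 0.893) and G30_SS minus G30_Cg was -0.12 (-0.55 to 0.30; adjusted p = 0.999).

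Cckbr was lower in the other pyramidal groups, and in YFPH_Amy, which has no class in its label, than in layer 5 of cingulate cortex. YFPH_Hip was below YFPH_Cg by 5.22-fold (-2.38 ± 0.21; limma adjusted p = 2.88e-10) and YFPH_Amy by 1.88-fold (-0.91 ± 0.21; adjusted p = 0.0037), with no overlap in either, as in 25.4% of genes for YFPH_Hip and 23% for YFPH_Amy. Without the 3 arrays that the records mark, the YFPH_Amy difference was -0.78 and was no longer called (adjusted p = 0.116). For YFPH_SS the difference was -0.78 ± 0.21 (limma adjusted p = 0.0485; -0.53 on the scan day with 1 array of each) and for CT6_Cg it was -0.65 ± 0.21 (adjusted p = 0.0353). Both of these stood just under the threshold: the YFPH_SS call ended without any 1 of YFPH_Cg arrays 1, 2 and 3 or YFPH_SS arrays 2 and 3, and the CT6_Cg call without any 1 of CT6_Cg arrays 1, 2 and 3 or YFPH_Cg arrays 1 and 3. Leaving out single arrays gave -0.94 to -0.69 for YFPH_SS (adjusted p 0.0156 to 0.288) and -0.74 to -0.61 for CT6_Cg (adjusted p 0.0463 to 0.119). In YFPH_SS the Pvalb level given above moved with the group, and its part in the Cckbr difference was not tested.

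In the amygdala, G30_Amy was above G30_Cg by 7.04-fold in Cckbr (2.82 ± 0.21; limma adjusted p = 8.41e-13), with no overlap, as in 39.3% of genes. YFPH_Amy minus G30_Amy was -0.28 ± 0.21 (95% interval -0.71 to 0.14; limma adjusted p = 0.361). The pyramidal marker sum moved with the first of these differences, at 17365 to 18905 in G30_Amy and 2144 to 2175 in G30_Cg, and its part in it was not tested.

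On the brighter probe set, sorted interneurons had less Cckbr than unsorted cells, in the pairs in which the 6 tested pyramidal markers were all lower. GIN_Cg was below GIN_Homog_Cg by 4.94-fold (-2.31 ± 0.21; limma adjusted p = 1.02e-10), and by -2.67, -2.01 and -2.24 on the 3 shared scan days, while on the second Cckbr probe set it was -0.10 and not called (adjusted p = 0.551). G42_Cg was below G42_Homog_Cg by 2.49-fold (-1.32 ± 0.21; limma adjusted p = 5.38e-06), and by -1.60 and -1.36 on the 2 shared days. The unsorted groups differed by -0.48 ± 0.21, GIN_Homog_Cg minus G42_Homog_Cg, with separate arrays, as in 11.2% of genes, but an adjusted p of 1 in limma.

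The second Cckbr probe set, 1460663_at, followed the first only in part. Its intensity stayed between 217 and 407 over all 42 arrays, and its group means spanned 0.64 on the log2 scale, against 3.93 for 1454770_at. Both were highest in YFPH_Cg. Over the 14 group means the sets had a Pearson r of 0.807 and a Spearman rho of 0.837, given as a description since the sets were read from the same arrays. On the second set the excess of G42_Cg over GIN_Cg was not seen (-0.15, limma adjusted p = 0.303), nor that of YFPH_Hip over GIN_Hip (-0.01, adjusted p = 0.939), nor the deficit of G42_LGN against G42_Cg (0.03, adjusted p = 0.888). YFPH_SS minus G30_SS was 0.22 on the second set and not called (limma adjusted p = 0.145). The Cckbr differences among interneurons, and those of pyramidal neurons over interneurons in hippocampus and somatosensory cortex, thus rest on 1454770_at alone.

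**Figure D3:**
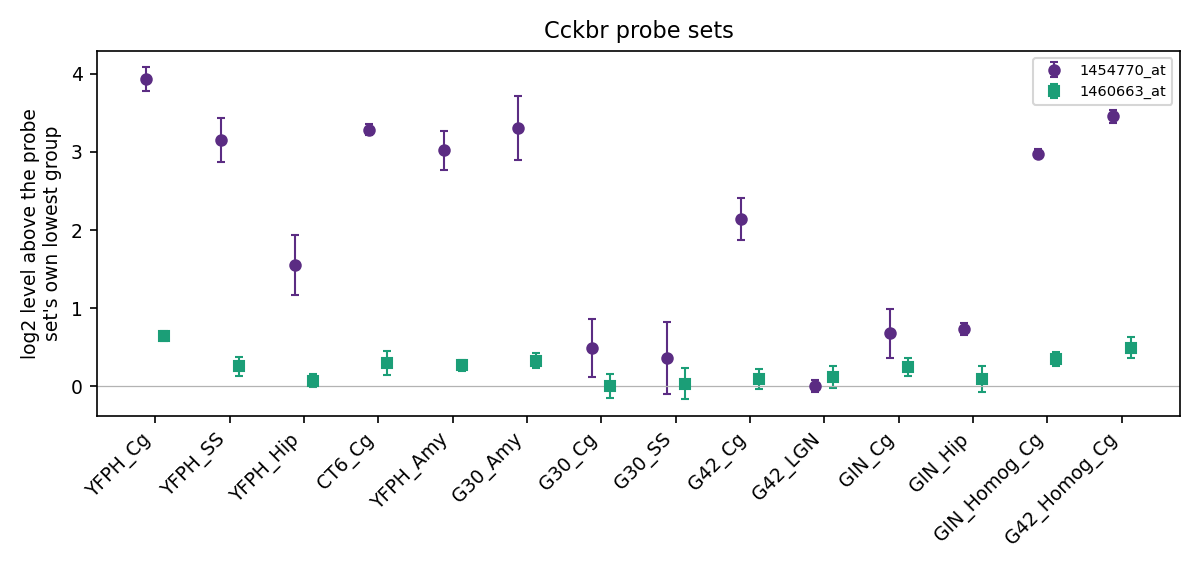
Group means of the probe sets of Cckbr on the log2(intensity + 16) scale, each set above its own lowest group, with the SD over 3 arrays. 1454770_at spans 3.93 and 1460663_at spans 0.64, and both peak in YFPH_Cg.

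Set side by side, peptide and receptor fell into several combinations. Both were high in YFPH_Cg, YFPH_SS, the amygdala groups and the unsorted cells. G30_Cg and G30_SS combined the highest peptide levels with a receptor at the low end. CT6_Cg had the reverse leaning, with Cck 4.01-fold below YFPH_Cg and a Cckbr of 2090 to 2283. GIN_Cg, GIN_Hip and G42_LGN were low in both. G42_Cg and YFPH_Hip stood between, with Cck of 3114 to 3941 and 6540 to 6815 beside Cckbr of 867 to 1238 and 502 to 862. Over the 12 sorted group means the Pearson r between the genes was 0.424 and the Spearman rho 0.014, and over the 42 arrays r was 0.460. These describe the same arrays and carry no test.

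**Figure D4:**
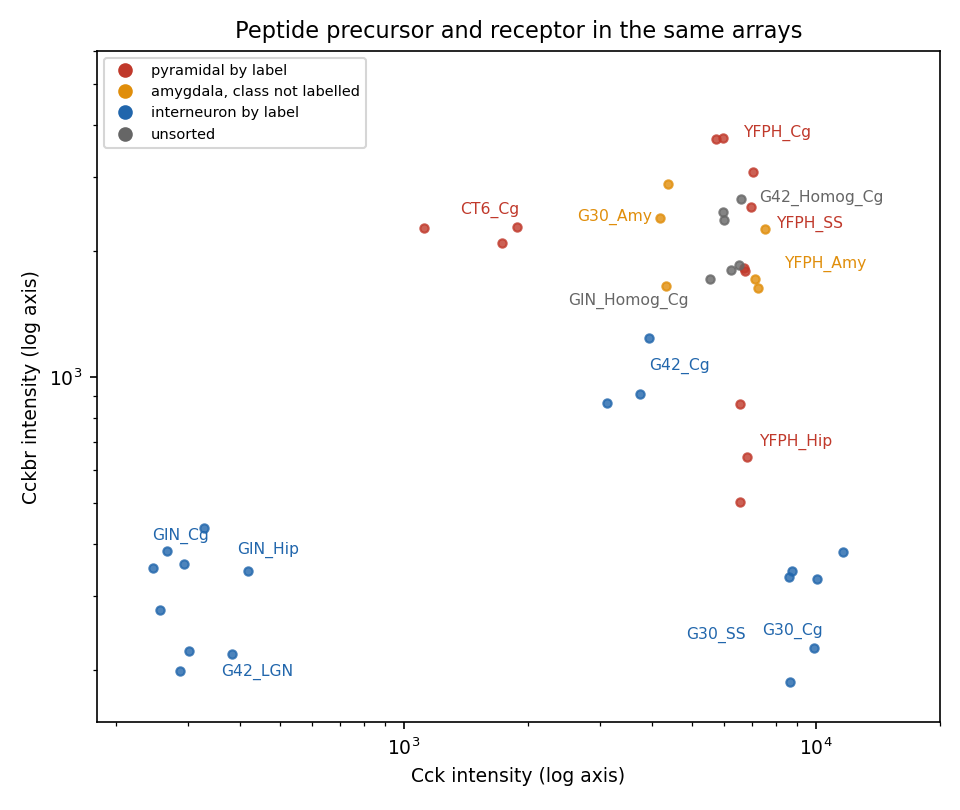
Cck intensity (horizontal, log axis) against Cckbr intensity (vertical, log axis) in each of the 42 arrays, coloured by the class in the label. The G30 cortical arrays sit at the lower right (Cck 8592 to 11663, Cckbr 188 to 382) and the GIN and G42_LGN arrays at the lower left.

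Whether the change between regions differed between lines was tested with interactions. For the amygdala, the YFPH_Amy minus YFPH_Cg difference exceeded the G30_Amy minus G30_Cg difference by 1.52 ± 0.20 in Cck (limma adjusted p = 1.11e-06) and lay below it by -3.73 ± 0.30 in Cckbr (adjusted p = 1.27e-11), where 11.7% of genes were called. In the G30 line the peptide was lower and the receptor higher in the amygdala cells than in the cortical ones, and in the YFPH line the receptor was lower. Cell-type markers moved with this interaction, with 3 of 3 tested GABAergic markers higher (median 3.63), 6 of 6 pyramidal markers lower (median -3.81) and 5 of 7 basket cell genes higher, so that cell class and region cannot be told apart in the G30 line. For the hippocampus, the YFPH minus GIN interaction was -2.44 ± 0.30 in Cckbr (limma adjusted p = 2.35e-07) and -0.11 ± 0.20 in Cck (adjusted p = 0.755), where 20.9% of genes were called. For somatosensory cortex, the YFPH minus G30 interaction was 0.41 ± 0.20 in Cck and -0.65 ± 0.30 in Cckbr (limma adjusted p = 0.999 and 0.882; 0.463% of genes called).

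The relatives of the pair were weak on these arrays. Cckar, the receptor form best known from the gut, was under the filter, with 44.0 to 96.1 over all arrays. Gast, which encodes gastrin, another ligand of Cckbr, ran from 185 to 689 and was slightly lower in the mean of the pyramidal groups than in that of the interneuron groups (-0.32 ± 0.12; limma adjusted p = 0.0292). The group means of the classes overlapped, from 7.91 in YFPH_Hip to 8.30 in YFPH_Cg and from 8.14 in GIN_Hip to 8.88 in GIN_Cg on the log2 scale.

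Genes that process the precursor differed between the classes in both directions. Of 10 listed, 8 were tested, and between pyramidal neurons and interneurons 3 were higher, 4 lower and 1 not called, where 22% of genes tested were higher and 27.1% lower. Their median difference was -0.19, against -0.02 over all genes tested. The pyramidal mean of Pcsk5, a proprotein convertase, was at least 1.5-fold higher, against an interneuron mean under the filter (limma adjusted p = 1.33e-06). Among pyramidal groups only those of layer 5 were high, with intensities of 690 to 754 in YFPH_Cg and 365 to 730 in YFPH_SS. YFPH_Hip (111 to 181) and CT6_Cg (132 to 232) had means under the filter. The interneuron group GIN_Cg had 417 to 635, while the other interneuron groups had means under the filter. Here and below, a fold against a group mean under the filter is taken against the filter value and given as a lower bound. Pcsk1n, which encodes the inhibitor proSAAS, was lower (-0.80 ± 0.11; adjusted p = 2.42e-07), as was Tpst1, a tyrosine sulphotransferase (-0.66 ± 0.08; adjusted p = 2.04e-08). In G30_Cg minus GIN_Cg, where Cck differed most, 1 of the 8 was higher, 4 were lower and 3 were not called, where 9.7% of genes were higher and 15% lower. Pcsk5 was among the lower ones (at least 2.43-fold; limma adjusted p = 2.46e-05). Pcsk1, a convertase of neuropeptide precursors, differed little between the classes (-0.03 ± 0.07; adjusted p = 0.762), but was at least 1.70-fold higher in G30_Cg than in G42_Cg (limma adjusted p = 6.45e-05).

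Genes of dense-core vesicle release were led by Cadps2, a priming factor for such vesicles. Its intensity was 5094 to 7878 in G30_Cg, 2601 to 6021 in G30_SS and 1641 to 4091 over the pyramidal groups, against 118 to 159 over G42_Cg, G42_LGN, GIN_Cg and GIN_Hip. The last of these ranges lay below all the others. YFPH_Amy had 2314 to 2581 and G30_Amy 1731 to 2300, within the pyramidal range. Cadps2 was at least 29.1-fold higher in G30_Cg than in GIN_Cg and G42_Cg, both of which had means under the filter, so it was low in G42_Cg, where Cck was not. Of the 12 genes tested, 5 were higher in pyramidal neurons than in interneurons, 4 lower and 3 not called (median 0.02), where 22% of all genes tested were higher and 27.1% lower. Syt4, a vesicle synaptotagmin, was among the higher (1.20 ± 0.10; limma adjusted p = 6.56e-12). Between G30_Cg and GIN_Cg 3 of the 12 were called, near the 24.7% over all genes.

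Downstream of the receptor, 17 genes of Gq signalling were listed and 12 tested. Between pyramidal neurons and interneurons 5 were higher, 2 lower and 5 not called, with a median of 0.08, beside 22% of all genes higher and 27.1% lower. Those with the largest differences were Rgs4, which shortens Gq signals (2.51 ± 0.13; limma adjusted p = 3.22e-18), Prkcb, a protein kinase C (1.78 ± 0.07; adjusted p = 8.88e-22), and Dgkz, which phosphorylates diacylglycerol (0.77 ± 0.08; adjusted p = 2.74e-10). Rgs4 was also lower in G30_Cg than in G42_Cg (-1.88 ± 0.28; limma adjusted p = 3.93e-06), as Cckbr was, together with Rgs2 (-0.95 ± 0.22; adjusted p = 0.00198) and Prkcb (-0.66 ± 0.15; adjusted p = 0.0013), while the other 9 were not called. In that comparison 8.61% of all genes tested were lower. In G30_Amy minus G30_Cg 5 of the 12 were higher, against 14% of genes tested. In YFPH_Hip minus YFPH_Cg, Rgs4 (-0.95 ± 0.28; limma adjusted p = 0.0238) was the 1 gene of 12 called, where 10.1% of all genes were. The phospholipase genes Plcb1, Plcb3 and Plcb4 differed between the classes by -0.23, 0.03 and 0.20.

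Several genes known from cholecystokinin basket cells were higher in the cortical G30 cells. Of 10 listed, 7 were tested, and in G30_Cg minus GIN_Cg 4 were higher, 1 lower and 2 not called (median 0.57), beside 9.7% of all genes higher and 15% lower. Vip, a second neuropeptide, was at least 25.9-fold higher, against a GIN_Cg mean under the filter, and outside the cortical G30 and unsorted groups its highest group mean was 7.87 on the log2 scale, beside a filter of 7.77. Htr3a, an ion channel opened by serotonin, was 8.29-fold higher (limma, 3.05 ± 0.14; adjusted p = 7.12e-19) and the cannabinoid receptor Cnr1 3.51-fold (1.81 ± 0.17; adjusted p = 2.35e-10). Cnr1 had 977 to 1224 in G30_Cg, against 289 to 314 in GIN_Cg and 271 to 333 in G42_Cg. Nr2f2, a transcription factor of caudal origin interneurons, was also higher (0.57 ± 0.12; adjusted p = 0.000844), and Adarb2, of the RNA-editing enzyme family, was lower (-0.32 ± 0.11; adjusted p = 0.0332). Reln and Chrna4 were not called, with log2 means of 13.10 and 9.34 in G30_Cg against 13.48 and 9.57 in GIN_Cg. Among listed genes under the filter, Sncg had 789 to 1090 in G30_Cg and 30.2 to 46.6 in GIN_Cg. Trpc6, also under the filter, went the other way, with 33 to 44 in G30_Cg and 709 to 743 in GIN_Cg. Against G42_Cg, 5 of the 7 were higher in G30_Cg, where 7.83% of genes were, Reln, a secreted glycoprotein, among them (4.10 ± 0.31; limma adjusted p = 1.01e-12). In YFPH_Cg minus G30_Cg 5 were lower and 2 not called, where 12.6% of genes were lower, and Vip ran from 131 to 191 over the arrays of the 4 pyramidal groups.

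**Figure D5:**
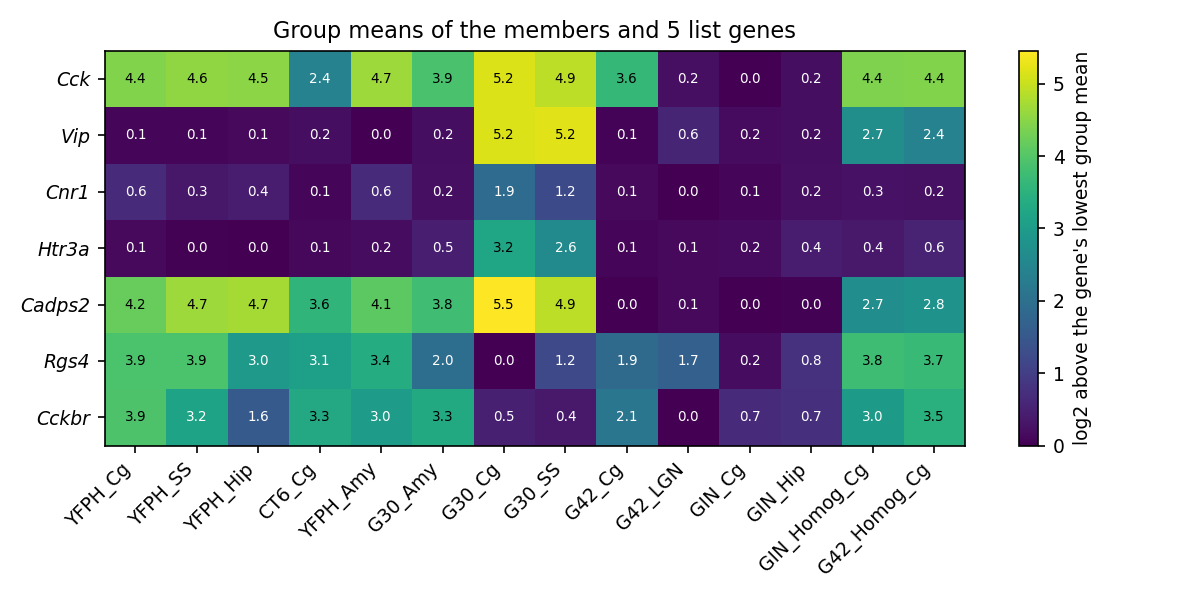
Group means of Cck, Cckbr and 5 listed genes, each as log2 above that gene's own lowest group mean, by group. Cadps2 is raised in the G30 cortical groups, all pyramidal groups and the amygdala groups. Vip, Cnr1 and Htr3a are highest in the G30 cortical groups, and Rgs4 is lowest in G30_Cg.

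The genes whose 12 sorted group means correlated best with those of Cck were Mpdz (Pearson r = 0.935), Cct7 (0.920), Aimp1 (0.917), Tsr1 (0.910) and Zfp326 (0.891), of 9294 other genes. Mpdz, a scaffold protein with many PDZ domains, averaged 10.78 in G30_Cg and 10.86 in G30_SS on the log2 scale, against 8.33 in GIN_Cg and 7.03 in G42_LGN. Most opposite to Cck were Mast2 (-0.938), Adtrp (-0.927) and Apoa1 (-0.923). Best correlated with Cckbr were Sirpa (0.942), Tpd52 (0.936), Synrg (0.930), Lin7b (0.929) and Tiam2 (0.910), and most opposite were Dusp10 (-0.933), Tfpt (-0.922) and Ovgp1 (-0.914). Sirpa, a cell surface receptor that binds CD47, averaged 11.80 in YFPH_Cg and 9.93 in G42_LGN on the log2 scale. Over the 42 arrays in place of the group means, 1 of the 5 best for Cck and 2 of the 5 best for Cckbr remained. Leaving out a whole group kept 2 to 5 of each. The correlations share their arrays and groups and were not tested.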

How the data were processed

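Expression was measured on 42 arrays of the Affymetrix MOE430A type, 3 for each of 14 groups taken from the sample titles. The analysis began from the intensity table the authors deposited, on a linear scale: 22690 probe sets by 42 arrays, from 1 to 22818.24 with array medians of 285.83 to 330.39. The labels and file headers do not state how signals were summarised or scaled. Per the labels' protocols, tissue was digested with pronase E and triturated, cells were picked by hand and RNA was amplified, which weights signal to the 3′ end of transcripts. The number of arrays limits the precision. Scan day, lot and remarks were read from deposited array records: 11 lots, 3 scan years and 21 scan days, of which 16 held several arrays.

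Each intensity was turned into log2(intensity + 16). After removal of 64 control probe sets, 20380 had 1 gene symbol in a platform annotation of GEO, 691 had several and 1555 were not listed. The brightest stood for each of 12393 genes, and a gene was tested where its mean reached the 25th percentile of all genes (log2 7.77, intensity 203). One linear model, with a coefficient for each group, was fitted to the 42 arrays in limma 3.58.1 (R 4.3.3; 28 residual degrees of freedom, trended prior), with Benjamini-Hochberg adjustment over 9295 genes within each comparison at 0.05. Fold changes are on the log2(intensity + 16) scale and understate those of low genes. In simulated data for YFPH_Cg against G30_Cg the fit was tested before use. Levels of different probe sets were not compared with each other. Figures were drawn with matplotlib.

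The members, gene lists and alternatives were chosen with earlier results of these data known, from textbook knowledge. Genes named from a list were among its 4 largest differences in the comparison described, or line checks; genes of like pattern were the 5 highest and 3 lowest correlations. Pcsk1, the Plcb genes, Rgs4 in YFPH_Hip and Cadps2 by group were named after their values were seen. So were Chrna4, Sncg, Trpc6, Reln against GIN_Cg, and the group levels of Pcsk5 and Gast. Some listed genes were not analysed here.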

Additional observations from a re-analysis of the deposited data

Results flagged for a closer look

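In 3 results the change between regions differed between lines, by a test of the difference itself in limma. For Cck between amygdala and cingulate cortex, YFPH minus G30 was 1.52 ± 0.20 on the log2 scale (adjusted p = 1.11e-06), with YFPH_Amy minus YFPH_Cg at 0.23 and G30_Amy minus G30_Cg at -1.28. For Cckbr in the same regions it was -3.73 ± 0.30 (adjusted p = 1.27e-11), from -0.91 in YFPH and 2.82 in G30. In both amygdala results the markers of cell class moved too: 3 of 3 tested GABAergic markers were lower in G30_Amy than in G30_Cg (median -3.61) and 6 of 6 pyramidal markers higher (median 3.34), so cell class and region cannot be told apart there. The YFPH_Amy and YFPH_Hip mice were also older, at 91 days or more, than the other mice with an age in the label. For Cckbr between hippocampus and cingulate cortex, YFPH minus GIN was -2.44 ± 0.30 (adjusted p = 2.35e-07), from -2.38 in YFPH and 0.05 in GIN. On the second Cckbr probe set the hippocampal value was -0.41 and was not called (adjusted p = 0.0593). Single outlying arrays were not tested for in groups of 3.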

How the results depend on the processing

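Values here are log2 differences with limma's adjusted p, and the cause of a changed call was not tested. Over all alternatives other than leaving out single arrays and comparing within a scan day, 802 values kept their direction and their side of the threshold and 36 did not; leaving out single arrays changed 17 of its values and left 355 as they were, and comparing within a scan day changed 5 and left 17. Most of the changes fell on the smallest called Cckbr differences. YFPH_SS minus YFPH_Cg in Cckbr (-0.78, adjusted p = 0.0485) was not called with a pseudocount of 1 (-0.78, adjusted p = 0.0566), no filter (-0.78, 0.0559), every probe set tested (-0.78, 0.0571), the second Cckbr probe set (-0.38, 0.0756), quantile normalization (-0.77, 0.0525), scan day as a random block (-0.77, 0.0504) or a fixed block (-0.66, 1), array lot (-0.76, 0.0572), a Gapdh 3′ to 5′ covariate (-0.79, 0.0881), cell number (-0.75, 0.298), the compared arrays alone (-0.78, 0.0726) or without the 3 marked arrays (-0.73, 0.2). CT6_Cg minus YFPH_Cg in Cckbr (-0.65, adjusted p = 0.0353) was not called with quantile normalization (-0.58, 0.063), scan day as a random block (-0.60, 0.0617), scan year (-0.62, 0.178), array lot (-0.62, 0.0505), the Gapdh covariate (-0.67, 0.0974), cell number (-0.60, 0.322) or without the marked arrays (-0.61, 0.0898). Without the marked arrays, YFPH_Amy minus YFPH_Cg in Cckbr was -0.78 (0.116).

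On the second Cckbr probe set the sign turned for G42_Cg minus GIN_Cg (-0.15), G42_LGN minus G42_Cg (0.028), YFPH_Hip minus GIN_Hip (-0.014), GIN_Hip minus GIN_Cg (-0.16) and G30_SS minus G30_Cg (0.033), and no call was made for G30_Cg minus G42_Cg (-0.093), YFPH_SS minus G30_SS (0.22), GIN_Cg minus GIN_Homog_Cg (-0.10) or the hippocampal interaction (-0.41). With scan year as a block, YFPH_Amy minus G30_Amy was 0.69 in Cck (adjusted p = 0.297) and turned to 0.12 in Cckbr, and YFPH_Hip minus GIN_Hip in Cckbr was 0.78 (0.0643). YFPH_SS minus G30_SS in Cck became called with quantile normalization (-0.41, 0.0415) and with the compared arrays alone (-0.35, 0.00647). The unsorted groups in Cck turned to 0.017 with quantile normalization. With each cell type as 1 replicate the Cck class difference was 1.62 (0.421). Within single scan days the class difference was -0.97 and -0.38 in Cck and 3.23 in Cckbr, YFPH_SS minus G30_SS in Cckbr was 2.35 and G42_Cg minus G42_Homog_Cg in Cck -1.07. Leaving out single arrays gave -0.94 to -0.69 for YFPH_SS and -0.74 to -0.61 for CT6_Cg minus YFPH_Cg in Cckbr. It gave values on both sides of 0 for GIN_Hip minus GIN_Cg (-0.10 to 0.21), G30_Cg minus GIN_Cg (-0.34 to 0.020) and G30_SS minus G30_Cg (-0.33 to 0.14) in Cckbr, and for the hippocampal interaction (-0.24 to 0.074) and the unsorted groups (-0.073 to 0.046) in Cck, none of them called.

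Pairing was checked by replicate number only: every correlation of the deviations of same-numbered arrays was over 0.1 in 1 of 20 pairs of groups (range -0.299 to 0.293). Some of these arrays shared more than a number. YFPH_Cg array 1 and YFPH_SS array 1 had the same scan day, lot and mouse age, with a correlation of 0.293. The check could not show mice shared between arrays of different number. The replicate block ended or added no call among the members, with CT6_Cg minus YFPH_Cg in Cckbr at -0.65 (adjusted p = 0.0318). Scan day as a fixed block could be fitted for 7 of 24 comparisons. Quantile normalization moved group levels by -0.07 to 0.06, and median centring by -0.05 to 0.06. The settings of the test over the 12 sorted groups were chosen after seeing the data. The number of arrays, the low Cckbr signal of most interneurons and the narrow range of the second Cckbr probe set limit what these data resolve. So does the low Cck signal of GIN_Cg, GIN_Hip and G42_LGN.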
